A study of Mus musculus with 4 samples.

Results

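The 10 genes described here, of 32285 in the count tables, encode proteins of the meiotic chromosome. They were chosen by symbol and comprise the axis proteins Sycp3 and Hormad1, the meiotic cohesin subunits Smc1b, Rec8 and Stag3, the central elements Syce1, Syce2 and Syce3, the transverse filament Sycp1, and the recombinase Dmc1. Their transcripts were followed in primary spermatogonial cultures, that is, in germ cells that had been enriched by the surface marker Thy1 and can include several kinds of spermatogonia. Every culture came from the testes of 3 male mice at postnatal day 6, whose selected cells were grown on STO feeder cells, a mouse embryonic fibroblast line. For 3 days the cultures received PBS (vehicle) or, at 1 μg/mL, extracellular vesicles (EVs) that had been collected from whole testes at postnatal day 7. Each arm had 2 libraries, and the counts of vehicle 1, vehicle 2 and EV 1 were used. Expression of EV 2 was not analysed here, so the EV arm rests on a single library and the arms were not tested against each other.

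Meiotic chromosomes are built on a protein axis. Cohesin holds the sister chromatids, with SMC1B, REC8 and STAG3 taking the place of mitotic subunits, and SYCP3 and HORMAD1 assemble along the axis. SYCP1 then links paired homologs like the teeth of a zipper, and SYCE1, SYCE2 and SYCE3 hold its ends together in the central element. DMC1 coats broken DNA ends and searches the homolog. In the postnatal testis this machinery is known from spermatocytes. Differentiating spermatogonia answer retinoic acid with Kit and Stra8, and STRA8 with its partner MEIOSIN drives many of these genes at meiotic entry.

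A cell was called germ when the unique molecular identifiers (UMIs, each counting 1 captured RNA molecule) of Dazl, Tex15, Stk31 and Epcam summed to at least 2 and exceeded those of Col1a1, Col1a2, Sparc and Dcn, and feeder in the reverse case. This gave 4411, 4783 and 227 germ cells and 2357, 2473 and 2508 feeder cells in vehicle 1, vehicle 2 and EV 1. Another 1495, 1381 and 2044 cells met neither rule. Germ cells carried a median of 1936, 2091 and 1322 UMIs and feeder cells 3635, 3896 and 2448. The libraries shared at most 22 of their cell barcodes with another one. The germ cells of the vehicle libraries differed by more than sampling noise (chi-square per degree of freedom of 2.31 over 15496 genes), and both were kept as replicates.

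The label of mitotic spermatogonia was checked against a list of 10 spermatocyte and spermatid genes. Pgk2, a glycolytic enzyme of spermatocytes and spermatids, and Tnp1, a transition protein of spermatids, had no UMI in germ cells of any library. Prm1 and Prm2, the protamines, had at most 4 UMIs each per library. Piwil1, a piRNA-binding protein of pachytene spermatocytes, had 32, 39 and 1 UMIs. Hspa2 and Ldhc, which also belong to the list, were detected with 371 and 96 UMIs in vehicle 1, 437 and 110 in vehicle 2, and 13 and 5 in EV 1. Ccna1 had 17, 8 and 0 UMIs, Acrv1 1, 13 and 1, and Spag6 7, 6 and 0. In edgeR's quasi-likelihood test against feeder cells, described below, 4 of the 10 could be tested. Of these Ldhc (log2 difference 3.64 ± 0.31), Piwil1 (3.40 ± 0.51) and Hspa2 (1.39 ± 0.12) were higher in germ cells (adjusted p = 3.49e-11, 9.95e-07 and 4.36e-11) and Spag6 was lower, so the list was low but not at 0. By expression scores, 2189 germ cells of vehicle 1 were assigned to S phase, 2050 to G2/M and 172 to G1, although phase scores alone do not show that a cell was cycling. Germ cells outside the gate's own genes were recognised by 6 other markers (Ddx4, Dnd1, Sall4, Mael, Tdrd5 and Taf4b), which passed the test as higher in germ than in feeder cells in 6 of 6 cases.

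Of the 10 genes, 9 had UMIs in germ cells of all 3 libraries, although Rec8 rested on 2 UMIs in EV 1. Sycp1 had at most 3 UMIs in any library. All levels below are UMIs per 1000000 UMIs of the summed cells of a class (CPM), with 95% exact Poisson intervals that cover counting error only. Because the protocol counts transcript ends, levels are compared between cells and not between genes.

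The axis gene Sycp3 reached 216 CPM (207 to 225) in germ cells of vehicle 1, 226 (218 to 236) in vehicle 2 and 399.99 (334 to 475) in EV 1, against 7.01, 6.79 and 1.92 CPM in the feeder cells of the same libraries. Hormad1, which marks axes that have not yet synapsed, reached 50.8 CPM (46.4 to 55.6), 51.3 (47.2 to 55.7) and 36.9 (19.1 to 64.5), against 1.15, 0.558 and 0.147 CPM in feeder cells. For both genes every germ value exceeded every feeder value.

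Among the cohesin genes, Smc1b had 570.4 CPM (555 to 586) in germ cells of vehicle 1, 595 (580.3 to 609) in vehicle 2 and 585 (504 to 674) in EV 1. Its feeder cells had 12.8, 9.95 and 1.47 CPM. Stag3 had 136 (129 to 144), 149 (142 to 157) and 166 CPM (125 to 217) in germ cells, and 3.97, 3.35 and 0.442 in feeder cells. The vehicle libraries were close to each other for both genes and EV 1 overlapped them within counting error. Rec8, the kleisin that closes the meiotic cohesin ring, was sparse, with 108, 134 and 2 UMIs in germ cells, or 11.4 CPM (9.38 to 13.8), 12.2 (10.2 to 14.4) and 6.15 (0.745 to 22.2). In feeder cells it had 7, 2 and 0 UMIs.

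The 3 central element genes were all present. Syce1 had 78.1 CPM (72.6 to 84.0) in germ cells of vehicle 1, 79.5 (74.4 to 85.0) in vehicle 2 and 102 (69.9 to 143) in EV 1, against 1.57, 0.930 and 0.147 in feeder cells. Syce2 had 278 (267 to 289), 288 (278 to 298) and 332 CPM (273 to 401), against 11.4, 8.83 and 4.42 in feeder cells. Syce3 had 102 (96.1 to 109), 98.4 (92.7 to 104) and 191 CPM (146 to 245), against 2.41, 1.86 and 1.03. Dmc1, the recombinase, had 81.6 (76.0 to 87.6), 82.4 (77.2 to 88.0) and 61.5 CPM (37.6 to 95.0), against 2.41, 2.42 and 0.737.

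Sycp1, whose product would bridge the axes, stood apart. It had 3 UMIs among the 9445041 of the germ cells of vehicle 1, none among 11013433 in vehicle 2 and none among 325012 in EV 1. A count of 0 allows up to 0.272 CPM in vehicle 2 and, at the low depth of EV 1, up to 9.23 CPM. The 3 UMIs of vehicle 1 correspond to 0.318 CPM (0.0655 to 0.928). Feeder cells of the same libraries had 6, 5 and 3 UMIs, or 0.628, 0.465 and 0.442 CPM, so its level in germ cells was not detectably above that of the fibroblasts in any library. The depth of EV 1 alone would not have shown this.

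**Figure D1:**
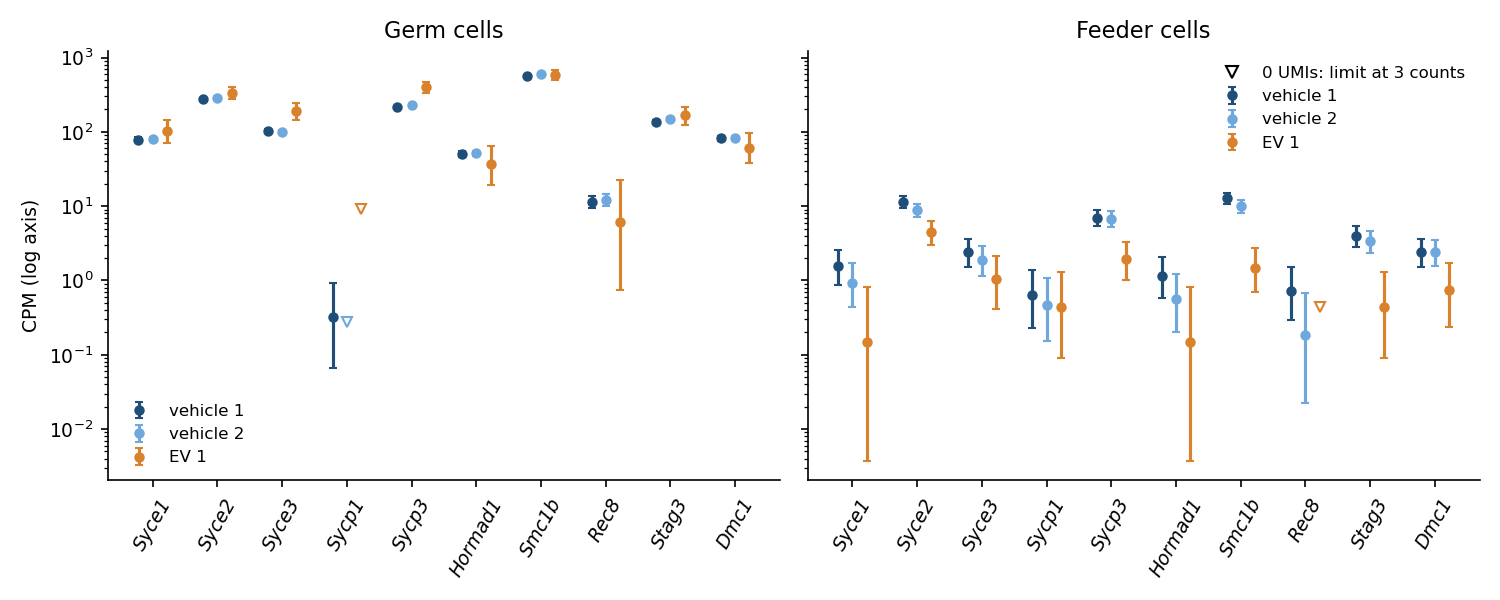
CPM (log axis) of each gene in germ cells (left) and feeder cells (right) of vehicle 1, vehicle 2 and EV 1, with 95% exact Poisson intervals as bars and open triangles at the limit that 0 UMIs allow. In germ cells 9 genes lie between 6.15 and 595 CPM while Sycp1 is at or under 0.318 CPM in the vehicle libraries.

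The promoters of 4 of these genes are shown because they hold short motifs bound by regulators of germline genes. RefSeq windows (GRCm38) matched 10 of 10 genes, and the 250 bases before the start site were searched on both strands. The E-box CACGTG is the site of MAX dimers, which with MGA form part of a complex that represses germline genes in other cells, and GCGGGAA is a site of the E2F family, of which E2F6 belongs to the same complex. The motif CNCCTCAG, in which N is any base, is known from promoters bound by STRA8. Sycp3 is shown from chr10:88459337-88459586 (plus strand), Hormad1 from chr3:95559427-95559676 (plus strand), Smc1b from chr15:85131958-85132207 (minus strand) and Sycp1 from chr3:102936101-102936350 (minus strand). All are written 5′ to 3′ toward the start site, and capitals mark these motifs.
Sycp3: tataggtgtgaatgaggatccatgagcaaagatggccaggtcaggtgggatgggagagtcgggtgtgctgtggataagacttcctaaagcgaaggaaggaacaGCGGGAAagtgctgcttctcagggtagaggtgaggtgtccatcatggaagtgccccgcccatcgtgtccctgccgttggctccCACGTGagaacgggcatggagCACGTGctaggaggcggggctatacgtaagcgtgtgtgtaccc
Hormad1: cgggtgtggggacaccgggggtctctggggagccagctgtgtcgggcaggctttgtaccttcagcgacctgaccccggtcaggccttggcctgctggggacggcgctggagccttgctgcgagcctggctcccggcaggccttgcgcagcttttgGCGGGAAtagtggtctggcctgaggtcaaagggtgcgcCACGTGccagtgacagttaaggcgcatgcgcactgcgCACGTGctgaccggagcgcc
Smc1b: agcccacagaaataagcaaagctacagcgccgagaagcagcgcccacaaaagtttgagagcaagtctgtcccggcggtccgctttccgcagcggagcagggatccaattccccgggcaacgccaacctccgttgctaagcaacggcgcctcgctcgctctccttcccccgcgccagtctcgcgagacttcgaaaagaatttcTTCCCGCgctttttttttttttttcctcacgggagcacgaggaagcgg
Sycp1: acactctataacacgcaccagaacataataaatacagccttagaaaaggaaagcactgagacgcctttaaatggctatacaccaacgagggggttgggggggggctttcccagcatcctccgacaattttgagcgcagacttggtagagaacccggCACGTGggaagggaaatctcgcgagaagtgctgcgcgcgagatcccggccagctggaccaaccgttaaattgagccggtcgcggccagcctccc

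An E-box was found for 5 of 10 genes (Syce2, Sycp1, Sycp3, Stag3 and Hormad1), against 6.86% of the 27025 genes with a window. The E2F-type motif was found for 4 of 10 (Syce2, Sycp3, Smc1b and Hormad1), against 4.38% of genes, and the STRA8-type motif for 1 of 10 (Syce2, where it overlaps the E2F-type motif), against 7.39%. Sycp3 and Hormad1 each held 2 E-boxes and 1 E2F-type motif, as the printed windows show. Sycp1 held an E-box 94 bases before its start site although its transcript was not detected above the feeder level. Their windows were also rich in CG pairs, with 12 in Sycp3, 19 in Hormad1, 25 in Smc1b and 17 in Sycp1 against a median of 6 over all windows, and matches were not adjusted for this. A match describes the letters only.

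In GENCODE vM21 on the same assembly, Sycp3 lies on chromosome 10 (88459569 to 88473236), Smc1b on 15 (85064689 to 85131964), Syce3 on 15 (89390174 to 89410503) and Sycp1 on 3 (102818499 to 102936100). Exons of Syce2 overlap the protein-coding gene Gcdh, and exons of Sycp3 overlap Chpt1, both on the opposite strand. No member shared an exon with a gene of its own strand.

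To ask whether the genes distinguish germ cells from their feeder layer, sums per class and library were compared with edgeR's quasi-likelihood test over all genes, with library as a term and Benjamini-Hochberg adjustment. Of the 10 genes 9 could be tested and 9 rose in germ cells, where 40.1% of 15629 genes rose and 41.7% fell. With most genes called between 2 different cell types, the count says little about the members, and the sizes of the differences are given for that reason. Log2 fold changes ran from 4.46 ± 0.36 (SE) for Rec8 (adjusted p = 1.92e-11) to 5.94 ± 0.20 for Syce1 (adjusted p = 3.76e-19), with 5.73 ± 0.26 for Smc1b (adjusted p = 7.68e-17) and 5.04 ± 0.21 for Sycp3 (adjusted p = 1.95e-17). Without vehicle 1 the values of Rec8 (5.80), Syce1 (6.62), Hormad1 (6.33 from 5.69) and Smc1b (6.33) moved by over 1.5 times as folds, as did Rec8 without vehicle 2 (3.86), so the place of Rec8 as the lowest rested on vehicle 1. The median over the 9 genes was 5.20, and over all genes tested -0.03. Sycp1 had too few UMIs to enter the test. In the alternative that kept all genes with at least 1 UMI it entered, and it was lower in germ cells at an unadjusted p under 0.05 but was not called.

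The remaining UMIs in feeder cells were of the size seen for other germ cell transcripts. Over the 9 detected genes, the feeder level was 2.01% to 6.40% of the germ level in vehicle 1, with a median of 2.92%. The 6 germ cell markers outside the gate gave 2.14% to 4.24%, with a median of 3.26%. In vehicle 2 the medians were 1.89% and 2.31%. In EV 1, which held far fewer germ cells, they were 0.439% over 8 genes and 0.368% over 5 markers with at least 10 germ UMIs and any in feeder cells. The feeder level thus moved with that of the markers across libraries. It was uneven over the feeder cells. In vehicle 1 the 175 scored as S or G2/M had 56.8 CPM of Smc1b and 46.1 of Syce2, against 8.49 and 8.03 in those scored as G1. In vehicle 2 the 172 scored as S or G2/M had 46.0 and 33.0 CPM, against 6.86 and 6.76. How much of the feeder level was free RNA, or germ cells placed in the feeder class, was not tested.

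**Figure D2:**
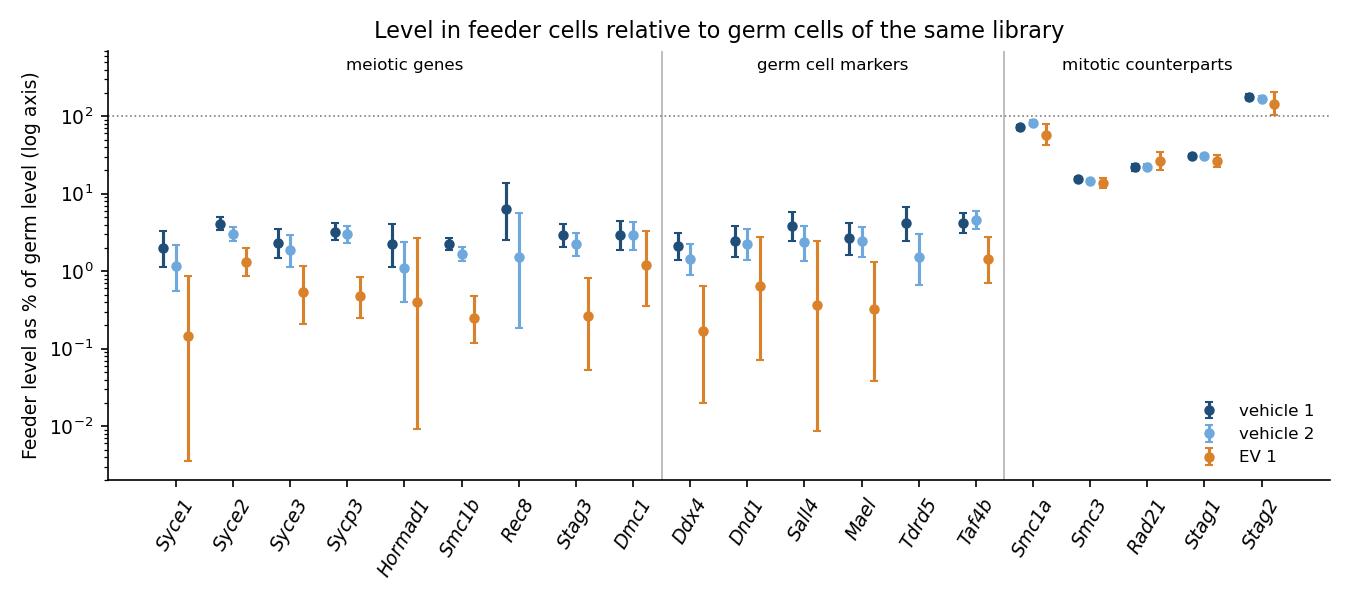
Feeder level as percent of the germ level in the same library (log axis) for the 9 detected meiotic genes, 6 germ cell markers outside the gate and 5 mitotic counterparts, with exact conditional 95% intervals; genes with under 10 germ UMIs or none in feeder cells are left out for that library. The meiotic genes and the markers lie between 0.145% and 6.40%, and the counterparts between 13.8% and 175%.

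The subunits that do the same work in mitosis were not confined to germ cells. Smc1a, the mitotic counterpart of Smc1b, had a log2 difference of 0.03 ± 0.13 (adjusted p = 0.848) between germ and feeder cells, with a feeder level at 71.8%, 82.7% and 57.6% of the germ level in vehicle 1, vehicle 2 and EV 1. Rad21, the counterpart of Rec8, was 1.68 ± 0.15 higher in germ cells (adjusted p = 9.06e-11). For Stag3 the counterparts diverged, since Stag1 was 1.31 ± 0.14 higher (adjusted p = 4.98e-09) and Stag2 fell by 1.15 ± 0.13 in germ cells (adjusted p = 1.56e-08). Smc3, which serves both kinds of cohesin, was 2.31 ± 0.15 higher (adjusted p = 1.69e-13). In all, 3 of the 5 rose in germ cells, 1 fell and 1 was not called.

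Other genes of the pathway split in the same way between detected and undetected. Of 6 axis and central element partners 4 could be tested and 4 rose in germ cells, among them the axis protein Sycp2 (4.61 ± 0.14, adjusted p = 8.83e-20) and 4930447C04Rik, also called Six6os1, a central element protein (4.17 ± 0.17, adjusted p = 8.41e-18). Tex12, which partners SYCE2 in the central element, had 0, 0 and 1 UMIs in germ cells, and Sycp2l had 6, 0 and 0. Of 8 genes of break formation 7 could be tested and 7 rose, from Prdm9 (0.62 ± 0.22, adjusted p = 0.0116), which sets break positions, to Mei1 (5.26 ± 0.26, adjusted p = 5.53e-16). Spo11, the enzyme that cuts the DNA, had 17, 16 and 0 UMIs in germ cells and 3 in feeder cells of each library. Among 11 genes of strand exchange and crossover 9 could be tested, of which 7 rose, Hsf2bp fell by 0.95 ± 0.31 (adjusted p = 0.00631) and Meiob was not called (0.57 ± 0.39, adjusted p = 0.175). Tex11, an X-linked crossover protein, rose by 4.46 ± 0.14 (adjusted p = 1.55e-19), while Spata22, the partner of MEIOB, had no UMI.

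All 5 genes of meiotic entry rose in germ cells. Stra8 had 1642, 1893 and 27 UMIs there and 28, 30 and 2 in feeder cells (log2 difference 5.66 ± 0.16, adjusted p = 4.74e-20). Rbm46 and Meioc, which act on meiotic transcripts, were higher by 5.79 ± 0.16 and 5.53 ± 0.18 (adjusted p = 4.74e-20 and 1.55e-19). Gm4969, the gene of MEIOSIN, was near the limit of detection with 11, 12 and 1 UMIs in germ cells (1.65 ± 0.64, adjusted p = 0.0198). Of 11 repressors of germline or meiotic genes 9 rose in germ cells. Dmrt1, which holds back Stra8 in spermatogonia, was 5.80 ± 0.21 higher (adjusted p = 1.51e-18) and E2f6 2.07 ± 0.14 higher (adjusted p = 7.24e-13), whereas Max was not called at 0.09 ± 0.11 (adjusted p = 0.451).

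Single germ cells carried few of these UMIs, but nearly all carried some. In vehicle 1 91.0% of germ cells had at least 1 of the 10 genes, with a mean of 2.24 genes and a maximum of 7. In vehicle 2 the share was 92.1%, the mean 2.40 and the maximum 8, and in EV 1 they were 89.0%, 1.96 and 5. At least 1 gene was found in 12.2%, 11.0% and 2.55% of feeder cells. When every cell was thinned to 1000 UMIs, so that depth was equal, at least 1 gene was found in 75.6%, 77.4% and 84.3% of germ cells and in 4.05%, 3.23% and 0.731% of feeder cells. Thinning left out 146, 112 and 49 germ cells that were shallower.

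Smc1b was seen in 62.1%, 65.2% and 51.5% of germ cells, with 95% Wilson intervals of 60.6% to 63.5%, 63.8% to 66.5% and 45.1% to 58.0%, and in 4.24%, 3.36% and 0.399% of feeder cells. At 1000 UMIs its share was 41.3%, 43.1% and 42.7%, so that the lower share in EV 1 was not seen at equal depth. Sycp3 was seen in 34.0%, 36.4% and 35.7% of germ cells, and at 1000 UMIs in 19.2% (18.1% to 20.5%), 19.6% (18.5% to 20.8%) and 34.3% (27.7% to 41.5%). EV 1 lay between the vehicle libraries at full depth and above both at equal depth. Syce3 was seen in 18.8%, 19.2% and 23.8% of germ cells, and at 1000 UMIs in 10.2% (9.35% to 11.2%), 9.46% (8.66% to 10.3%) and 15.2% (10.6% to 21.2%). The remaining detected genes ranged in vehicle 1 from 2.38% (Rec8) to 42.0% (Syce2). Sycp1 was seen in 3 of 4411 germ cells of vehicle 1, in none of vehicle 2, which allows a share of up to 0.0627%, and in none of EV 1, which allows up to 1.32%. These limits are on cells with a captured UMI, not on cells that express the gene.

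**Figure D3:**
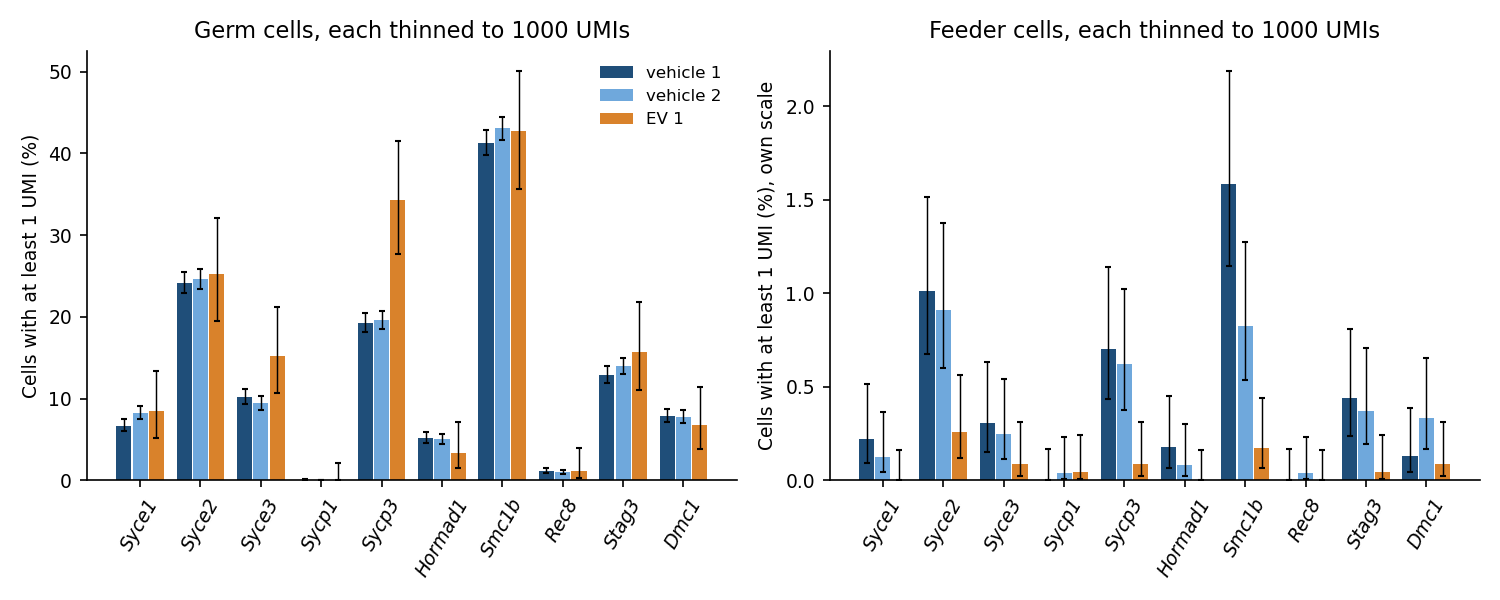
Share of cells with at least 1 UMI of each gene after thinning every cell to 1000 UMIs, in germ cells (left) and feeder cells (right, own scale) of each library, with 95% Wilson intervals. Smc1b reaches 41.3% to 43.1% of germ cells and at most 1.59% of feeder cells, and Sycp3 in EV 1 (34.3%) stands above the vehicle libraries.

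Counts within a cell were low as well. The largest number of Smc1b UMIs in a germ cell was 11, 11 and 10 in the 3 libraries, and that of Sycp3 was 6, 9 and 6. Without the highest cell the level in EV 1 was 382 CPM for Sycp3, 182 for Syce3 and 554 for Smc1b, whereas Rec8, on 2 UMIs, went from 6.15 to 3.08 CPM.

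Stra8 and Kit mark the step from undifferentiated to differentiating spermatogonia. To ask whether the meiotic genes followed that step, germ cells with a UMI of either gene (1400, 1572 and 32 cells) were compared with the rest (3011, 3211 and 195 cells) in the same kind of fit, without Stra8 and Kit. Only 1 of 9 genes tested rose and 1 fell, where 1.82% and 2.77% of 13189 genes did. Sycp3 was the one that rose. In vehicle 1 it had 279 CPM in positive and 181 CPM in negative cells, in vehicle 2 284 and 192 CPM, and in EV 1 497 and 379 CPM. It was higher in positive cells of 3 of 3 libraries, by 0.56 ± 0.05 on the log2 scale (adjusted p = 1.30e-25).

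Syce3 went the other way. It had 81.1, 89.6 and 137 CPM in positive cells and 114, 104 and 202 CPM in negative cells, and fell by 0.37 ± 0.07 (adjusted p = 6.76e-05), again in 3 of 3 libraries. The other 7 genes were not called, with log2 differences from -0.00 (Dmc1) through 0.03 ± 0.04 (Smc1b) and 0.08 ± 0.06 (Stag3) to 0.18 ± 0.10 (Hormad1, adjusted p = 0.363). For Smc1b the levels were 578, 611 and 686 CPM in positive cells and 566, 585 and 562 in negative cells.

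Both calls were lost without vehicle 1 and without vehicle 2, in fits that kept EV 1 with its 32 positive cells. Without vehicle 1 Sycp3 differed by 0.45 (adjusted p = 1.00) and without vehicle 2 by 0.50 (adjusted p = 1.00), while without EV 1 it differed by 0.58 (adjusted p = 1.12e-33), and for Syce3 the values were -0.30, -0.55 and -0.36 with the adjusted p at 1.00, 1.00 and 3.75e-05. DESeq2 gave no call among all 13189 genes with the 3 libraries (1 member at an unadjusted p under 0.05 in each direction). With the vehicle libraries alone it gave Sycp3 an adjusted p of 4.53e-07 and did not call Syce3. That fit gave an adjusted p to 975 genes only, so its adjusted values are not on the same footing as those over 13189. At 1000 UMIs per cell the difference of Sycp3 was 0.60 (adjusted p = 2.51e-09) and that of Syce3 -0.23 (adjusted p = 0.716). Positive cells were deeper, with a median of 2151 against 1861 UMIs in vehicle 1, and 30 of 54 G2/M genes were higher in them. The part of either in these differences was not tested beyond the thinning.

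The calls on the other fixed lists come from the same fit, in which 1 gene of 11968 was higher and 4 were lower without vehicle 1, and 0 of 11556 were higher and 3 lower without vehicle 2. In the fit to all 3 libraries, Rbm46 was the gene of meiotic entry that rose in positive cells (0.42 ± 0.05, adjusted p = 4.22e-12), 1 of 3 tested. Ankrd31, a break formation protein, rose by 0.19 ± 0.06 (adjusted p = 0.0373), 1 of 7 tested, and Tex11 by 0.28 ± 0.05 (adjusted p = 5.58e-06), 1 of 7 in strand exchange and crossover. Of the 11 repressors Dmrt1 (0.35 ± 0.04, adjusted p = 1.32e-12) and Mga (0.22 ± 0.06, adjusted p = 0.00722) rose. Smc1a fell by 0.20 ± 0.06 (adjusted p = 0.0393) and was the 1 of 5 mitotic counterparts called. Of the spermatocyte and spermatid genes, 3 could be tested and Hspa2 rose by 0.48 ± 0.11 (adjusted p = 8.97e-04). Of the 6 germ cell markers outside the gate, Mael rose by 0.28 ± 0.08 (adjusted p = 0.0131) and 5 were not called, with a median of -0.09 over the 6. Of the 4 germ gate genes, Tex15 rose by 0.38 ± 0.04 (adjusted p = 1.57e-23) and 3 were not called. The gate genes selected the cells compared, so no conclusion is drawn from them.

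Meiotic cohesin and synaptonemal complex genes are normally switched on around the last DNA replication before meiosis. In these germ cells, the 9 testable genes were compared between G2/M and S phase as assigned by the expression scores, without the scoring genes. Of them 5 fell and 1 rose in G2/M, where 7.64% and 8.33% of 13539 genes did. Syce3 had the lowest fitted difference, with 81.8, 81.5 and 140.3 CPM in G2/M and 127, 116 and 219.9 CPM in S phase of vehicle 1, vehicle 2 and EV 1. It fell by 0.55 ± 0.07 (adjusted p = 9.87e-15), in 3 of 3 libraries, although other genes had a lower ratio within vehicle 2 (Dmc1) and within EV 1 (Syce2, and Rec8 on 2 UMIs).

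Dmc1 fell by 0.38 ± 0.07 (adjusted p = 4.13e-06), with 75.8, 69.3 and 51.7 CPM in G2/M against 91.1, 99.9 and 64.7 in S phase. Syce2 fell by 0.28 ± 0.04 (adjusted p = 1.36e-08), with 256, 262 and 244 CPM against 309, 324 and 433. Smc1b fell by 0.20 ± 0.03 (adjusted p = 3.50e-07) and Stag3 by 0.19 ± 0.06 (adjusted p = 0.00634). For all 4 the level was lower in G2/M in 3 of 3 libraries. Sycp3 rose by 0.17 ± 0.05 (adjusted p = 0.00352) with 227 and 239 CPM in G2/M against 203 and 214 in S phase of the vehicle libraries, whereas EV 1 had 347 against 375. Its call was lost without vehicle 1 (0.15, adjusted p = 0.592), without vehicle 2 (0.15, adjusted p = 0.683) and at 1000 UMIs per cell (0.071, adjusted p = 0.676). Syce1, Rec8 and Hormad1 were not called, at 0.03 ± 0.07, -0.00 ± 0.21 and 0.05 ± 0.09.

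Syce3 was the gene whose phase difference passed the test under every alternative run, between -0.43 and -0.61 with an adjusted p of at most 0.0233. At 1000 UMIs per cell Syce3 (-0.43, adjusted p = 0.00403) and Smc1b (-0.15, adjusted p = 0.0277) were the 2 that still passed, while Syce2 was at -0.11, Stag3 at -0.11 and Dmc1 at -0.23 (adjusted p = 0.376, 0.578 and 0.2705). Without vehicle 1 or without vehicle 2 1 of 9 genes passed the test as lower, and without EV 1 5 did. The differences that lost the call stayed below 0, with -0.33 and -0.31 for Syce2, -0.49 and -0.24 for Dmc1, -0.20 and -0.22 for Smc1b, and -0.21 and -0.20 for Stag3 without vehicle 1 and vehicle 2 in turn. G2/M cells were deeper than S cells, with a median of 2276 against 1766 UMIs in vehicle 1 and 2494 against 1892 in vehicle 2.

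**Figure D4:**
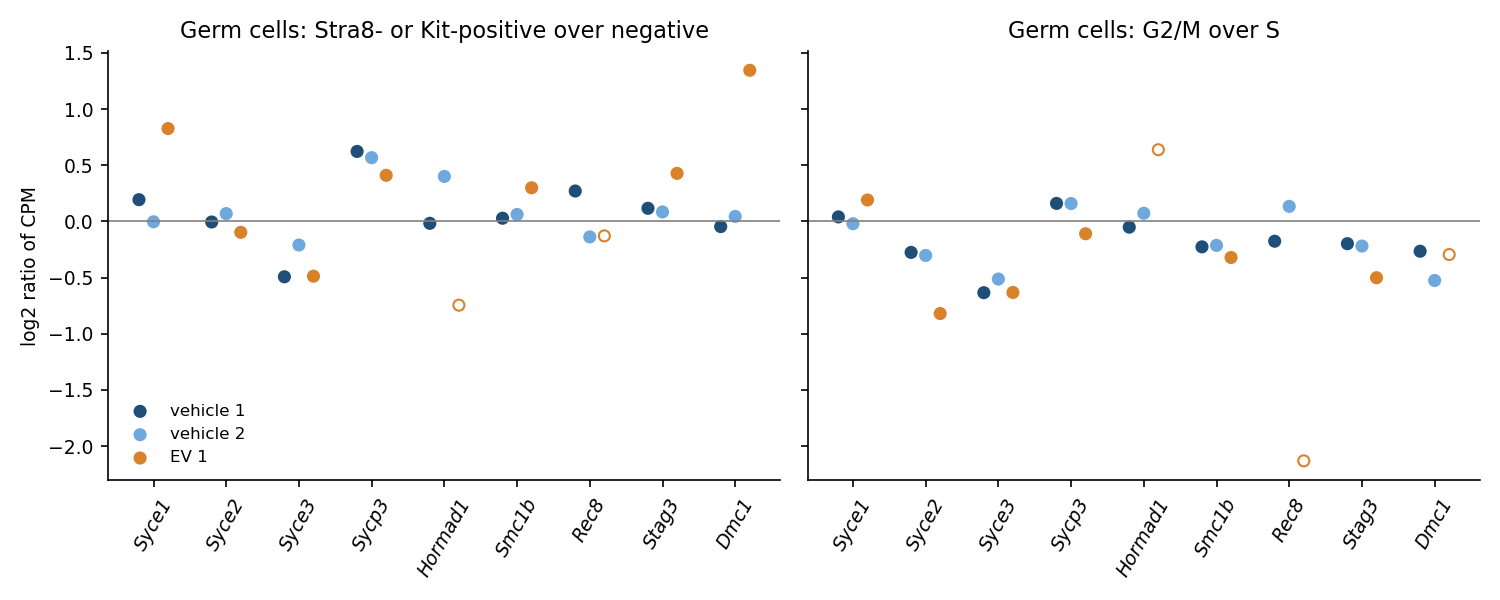
Log2 ratio of CPM between germ cells with and without Stra8 or Kit (left) and between G2/M and S phase germ cells (right), per gene and library, with 0.5 UMI added; open symbols have under 20 UMIs in the cells compared. Sycp3 lies above and Syce3 below 0 in all 3 libraries on the left, and Syce3 lies between -0.51 and -0.63 on the right.

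Among the few germ cells scored as G1 (172, 167 and 30), Smc1b, Syce2 and Dmc1 were among the genes lower than in S phase in the vehicle libraries. Syce2 had 196 CPM (146 to 257) and 165 (122 to 220) in G1, against 309 and 324 in S phase. Hormad1 had 23.0 and 28.2 against 52.6 and 50.5 CPM, on 6 and 8 G1 UMIs, and Stag3 119 and 106 against 147 and 162. Syce3, with 107 and 120 against 127 and 116 CPM, was not lower in vehicle 2. Smc1b had 272 CPM (213 to 343) in G1 of vehicle 1 and 324 (261 to 397) in vehicle 2, against 628 and 649 CPM in S phase. In EV 1 it rested on 3 UMIs. Dmc1 had 42.2 CPM (21.1 to 75.5) and 35.2 (16.9 to 64.7) in G1, against 91.1 and 99.9 in S phase, on 11 and 10 UMIs. Sycp3 had 199 and 190.1 CPM in G1 of the vehicle libraries, close to its S phase values, whereas in EV 1 it had 714 CPM (462 to 1054, 25 UMIs) in G1 against 375 (285 to 485) in S phase. G1 cells were the shallowest, with a median of 1439 and 1549 UMIs, and no test was made of them. In vehicle 1 they also held more UMIs of the 4 feeder gate genes (242 against 136 CPM in S phase) and the 8 fibroblast markers (303 against 202), and fewer of the 6 germ cell markers (433 against 527). In vehicle 2 these were 148 against 103, 253 against 194 and 475 against 517 CPM. The part of these in the differences was not tested.

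The fixed lists were read from the same fit, in which the genes lower in G2/M numbered 85 without vehicle 1, 19 without vehicle 2 and 25 with DESeq2. With all 3 libraries, genes of break formation also fell in G2/M in 3 of 7 cases, Mei1 by 0.79 ± 0.12 (adjusted p = 1.21e-09), Gm960 (Top6bl), a partner of SPO11, by 0.46 ± 0.09 (adjusted p = 5.14e-06) and Ccdc36 (Iho1) by 0.37 ± 0.14 (adjusted p = 0.0464). Of 4 axis and central element partners tested, Sycp2 fell by 0.29 ± 0.07 (adjusted p = 3.64e-04) and 4930447C04Rik rose by 0.22 ± 0.08 (adjusted p = 0.0345). Of 9 genes of strand exchange and crossover, Mnd1 and Tex11 rose by 0.39 ± 0.12 and 0.17 ± 0.05 (adjusted p = 0.0112 and 0.00607), and Psmc3ip and Mlh3 fell by 0.39 ± 0.09 and 0.29 ± 0.10 (adjusted p = 1.40e-04 and 0.0253). Stra8, 1 of 4 genes of meiotic entry tested, was higher in G2/M by 0.43 ± 0.05 (adjusted p = 3.97e-14). Of the 11 repressors, Dmrt1 rose by 0.40 ± 0.04 (adjusted p = 3.94e-18) and Dnmt1 fell by 0.26 ± 0.04 (adjusted p = 4.63e-07). Hspa2, 1 of 3 spermatocyte and spermatid genes tested, rose by 0.96 ± 0.11 (adjusted p = 3.61e-16). Of the 4 germ gate genes Epcam (0.28 ± 0.03) and Tex15 (0.18 ± 0.03) rose and Stk31 fell by 0.17 ± 0.04 (adjusted p = 4.84e-14, 4.76e-07 and 3.38e-04). These genes selected the cells compared, so no conclusion is drawn from them. Taf4b rose by 0.37 ± 0.06 (adjusted p = 1.56e-07), 1 of 6 germ cell markers outside the gate, and Fn1 fell by 0.21 ± 0.06 (adjusted p = 0.00592), 1 of 5 fibroblast markers tested. Cd68, the 1 macrophage marker tested, fell by 1.05 ± 0.32 (adjusted p = 0.0107). The Sertoli, Leydig, myoid and endothelial markers tested were not called. Of the 5 mitotic counterparts, Rad21 was higher by 0.45 ± 0.05 (adjusted p = 6.76e-21), Smc1a was lower, at -0.35 ± 0.06 (adjusted p = 2.53e-08), and 3 were not called.

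The study asked how testis EVs act on spermatogonia. For the meiotic genes the germ cells of EV 1 are set beside those of the vehicle libraries as values, since EV 2 was not analysed here. None of the 9 genes with at least 200 UMIs lay 2-fold or more from the vehicle mean and outside the vehicle range, where 4.15% of 9674 genes lay that far above and 4.49% that far below. On the log2 scale EV 1 exceeded the mean of the vehicle libraries by a median of 0.23 over the 9 genes and of 0.01 over all 9674. Of the 9, 6 were above 0 and 3 below, but Smc1b (0.0089) turned below 0 with doublets kept, as a mean over cells, without vehicle 1 and with TMM factors (-0.14), and Rec8 (-0.62) turned to 0.22 under the strict gate.

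The 2 genes furthest above the vehicle libraries were Syce3 and Sycp3. Syce3 had 191 CPM in EV 1 against 100.5 ± 2.87 CPM (SD of 2 libraries), a ratio to the pooled vehicle cells of 1.90 (exact 95% interval 1.45 to 2.45). Sycp3 had 399.99 CPM against 221 ± 7.55, a ratio of 1.81 (1.505 to 2.15). Their intervals, which cover counting error only, lay above 1, and the log2 ratio stayed between 0.79 and 1.01 for Syce3 and between 0.71 and 0.96 for Sycp3 over 8 settings. The upper value of Syce3 came from the strict gate, under which it passed 2-fold. Smc1b was level at 1.00 (0.864 to 1.16). Syce1 at 1.29 (0.883 to 1.81), Syce2 at 1.17 (0.961 to 1.42) and Stag3 at 1.16 (0.869 to 1.52) had intervals that included 1, as did Hormad1 at 0.723 (0.372 to 1.27), Dmc1 at 0.750 (0.457 to 1.16) and Rec8 at 0.520 (0.0626 to 1.90). For Rec8 this rested on 2 UMIs.

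Among the 4 genes of meiotic entry with at least 200 UMIs, Stra8 was the one that lay at least 2-fold from the vehicle mean. It had 83.1 CPM, on 27 UMIs of 1 library, against a vehicle mean of 173, a ratio of 0.481 (0.316 to 0.701). The study measured Stra8 by real-time PCR in independent experiments and found it comparable between EV and vehicle treatment. Rbm46 had a ratio of 0.660 (0.475 to 0.893). Meioc at 0.751 (0.437 to 1.21) and Ythdc2 at 0.584 (0.266 to 1.11) had intervals that included 1. These 4 genes had a median log2 ratio of -0.64 and all lay below 0, as did 4757 of all 9674 genes. Of the other lists, break formation had 5 of 6 genes above 0, axis and central element partners 2 of 4, strand exchange and crossover 3 of 7, repressors 4 of 10, mitotic counterparts 3 of 5 and spermatocyte and spermatid genes 2 of 2. The 8 fibroblast markers outside the gate summed to 302 CPM in germ cells of EV 1 against 194 and 182. Fn1 alone gave 74 of their 98 UMIs, at 1.82 (1.42 to 2.29) times the pooled vehicle level, while Col5a1 was at 0.765 (0.348 to 1.46). Of other markers of feeder or somatic cells, Dcn, a gene of the feeder gate, was at 1.49 (1.05 to 2.05) and Sox9, which feeder cells also carried above germ cells (log2 difference -4.03 ± 0.18, adjusted p = 5.83e-17), at 2.01 (1.09 to 3.41). EV 1 differed further by its 227 germ cells and their lower depth, and the part of these in the ratios was not tested.

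**Figure D5:**
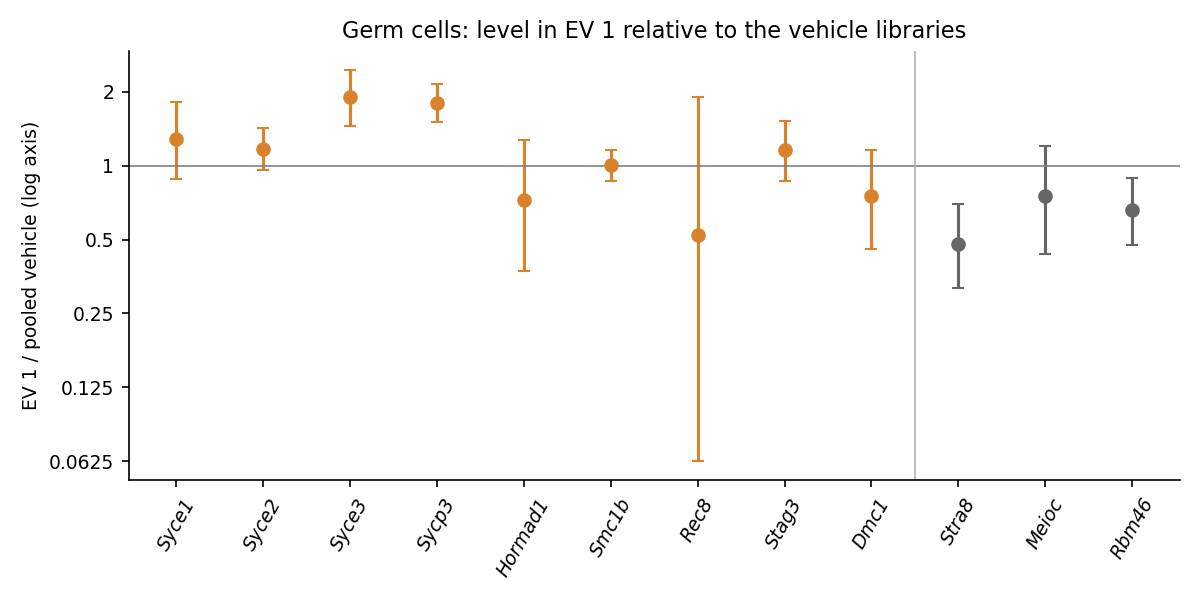
Ratio of the level in germ cells of EV 1 to that in the pooled vehicle germ cells (log axis) for the 9 detected meiotic genes and, right of the line, Stra8, Meioc and Rbm46, with exact conditional 95% intervals for counting error. Syce3 (1.90) and Sycp3 (1.81) lie above 1 with their intervals, and Stra8 (0.481) lies below.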

How the data were processed

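Single-cell RNA was measured with a 10x droplet protocol. The deposited tables hold, for each barcode, unnormalised UMI counts of every gene, which the authors made with Cell Ranger 7.0.1 on mm10 with GENCODE vM23 according to the submitters' notes and the study's methods. A barcode was kept when more than 400 but fewer than 4000 genes were detected and its mitochondrial share was below 10% (8896, 9334 and 4977 of 9291, 9738 and 5249 barcodes in vehicle 1, vehicle 2 and EV 1), and the highest Scrublet scores (scanpy 1.11.5) were removed at 0.8% per 1000 cells (633, 697 and 198 cells). The study used another doublet caller. The 3 libraries held 23686047, 27444797 and 10793232 UMIs. For EV 2 the barcodes alone were read.

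Sums per library and class were tested with edgeR 4.0.16 (TMM, filterByExpr, quasi-likelihood, Benjamini-Hochberg, threshold of 0.05), with library as a term. Each SE was derived from the F statistic of that fit. The gate genes, Stra8 and Kit, or 43 S and 54 G2/M genes were left out of the fit they define. The vehicle and EV libraries are called biological replicates in the sample titles. The p-values and SEs come from a fit to these 3 libraries that shares the spread across genes. They do not measure each gene's own spread between the libraries, for which the values with a library left out are given. No test was made between the arms. Ratios there used 0.5 UMI added to each sum. Intervals are at 95% and cover counting error only, and a count of 0 was given the limit of 3 counts. Alternatives covered DESeq2 1.42.0, other scaling and filters, a stricter gate (at least 3 own UMIs and 0 of the other class), doublets kept, thinning to 1000 UMIs and each library left out; a DESeq2 fit to the vehicle libraries alone was added after the data were seen. Scripts were tested on simulated data. Genes named are the 10 members and fixed lists for mitotic counterparts, meiotic entry, axis partners, break formation, strand exchange, spermatocytes, repressors and cell types. Lists are given by their counts with values for genes those counts turn on, except that the fibroblast and somatic cell type lists are given in part. One gene was taken out of the lists and is not reported here. Members and lists were chosen with earlier results of these data known.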

Additional observations from a re-analysis of the deposited data

Results flagged for a closer look

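Sycp3 between G2/M and S phase had opposite signs in the arms. Its log2 ratio was 0.16 in both vehicle libraries and -0.11 in EV 1, where it rested on 47 UMIs in G2/M and 58 in S phase. In EV 1 the counting interval of the S phase level, given above, includes the G2/M level. Every vehicle library moved one way and the 1 EV library the other, and the difference between the arms was not tested. Genes with under 10 UMIs in a library were not compared in this way.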

How the results depend on the processing

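In germ against feeder cells, 9 genes rose under every alternative run, and the 99 single-gene values kept their direction and side of the threshold. Between Stra8- or Kit-positive and negative cells, the count of genes that rose (1) was 0 with DESeq2 on 3 libraries and 0 to 1 when a library was left out, and 1 otherwise. The count that fell (1) was 0 with DESeq2 on 3 libraries or on the vehicle libraries, 0 without the library term, 0 at 1000 UMIs and 0 to 1 when a library was left out. Between G2/M and S phase, the count that rose (1) was 0 with DESeq2 in both forms, without the library term and at 1000 UMIs, and 0 to 1 when a library was left out. The count that fell (5) was 1 with DESeq2 in both forms, 3 without the library term, 2 at 1000 UMIs and 1 to 5 when a library was left out. Without EV 1 the 4 counts were those of the full fit, while leaving out vehicle 1 or vehicle 2 lowered each of them. At an unadjusted p under 0.05, DESeq2 on 3 libraries gave 1 gene higher and 1 lower in positive cells, and 0 higher and 4 lower in G2/M. The cause of these losses was not tested.

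Signs turned only for genes that were not called. In the comparison by Stra8 or Kit, Syce2 was at -0.032 with DESeq2, -0.022 without the library term and -0.085 to 0.018 with a library left out. Rec8 was at -0.017 with DESeq2, -0.0012 with all genes that had at least 1 UMI, -0.11 under the strict gate and -0.18 to 0.22 with a library left out. Dmc1 was at 0.055 with DESeq2, 0.0095 without the library term, 0.16 at 1000 UMIs, 0.053 with Stra8 alone and -0.015 to 0.090 with a library left out. Hormad1 ran from -0.067 to 0.34 with a library left out. Between the phases, Rec8 was at 0.0015 with RLE scaling, 0.0049 with all genes, 0.085 with doublets kept and -0.21 to 0.11 with a library left out, and Hormad1 at -0.073 at 1000 UMIs.

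The median by which EV 1 exceeded the vehicle libraries on the log2 scale (0.23) was 0.18 with doublets kept, 0.085 with TMM factors and 0.17 to 0.27 with a vehicle library left out, where the vehicle libraries had an SD of 0.04. The median share of germ cells over the 10 genes fell from 17.1%, 17.8% and 17.6% to 9.04%, 8.86% and 11.8% at 1000 UMIs, by construction of the thinning. Without filters on cells, the summed feeder level of vehicle 2 was 39.5 CPM instead of 35.3. Sums for all genes that passed differed between fits by over 1.5 times: in the Stra8 or Kit comparison 240 rose and 365 fell in the full fit, 24 and 54 did without the library term, 25 and 40 at 1000 UMIs, 1 and 4 without vehicle 1, 0 and 3 without vehicle 2, and 0 and 0 with DESeq2, and between the phases 1128 and 1035, 469 and 461, 289 and 210, 146 and 85, 52 and 19, and 57 and 25. No paired analysis was possible because the counts of EV 2 were not analysed here, which leaves the arms 1 replicate number in common. Depth limits EV 1 most, where 1 UMI in germ cells is worth 3.08 CPM and Rec8 and Sycp1 could not be placed.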

Other observations

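Cells that met neither rule of the gate carried the meiotic genes at lower levels. Smc1b had 219.6, 219.3 and 29.6 CPM in them in vehicle 1, vehicle 2 and EV 1, and Sycp3 had 101, 91.3 and 24.8 CPM, between the germ and the feeder values of each library. Sycp1 was the exception, since its highest count of any class was in these cells of EV 1, with 10 UMIs in 10 of 2044 cells, or 3.44 CPM (1.65 to 6.33), against 1.75 and 0.895 CPM in the vehicle libraries. The intervals of the 3 libraries overlapped.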
